A study of Mus musculus with 12 samples.

Results

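The MYC, MAX and MXD network is a small set of transcription factors that compete for the same partner and the same DNA site. The members were 10 genes of the deposited count table, taken where its gene column equalled Myc, Mycn, Mycl, Max, Mxd1, Mxd3, Mxd4, Mxi1, Mnt or Mlx, among 46403 genes in all. Each of the 10 passed the filter on low counts through its level in every library, with between 654 counts for Mycl and 18869 for Mxd4. Between kidneys labelled Grhl2 knockout; Myc overexpression and wildtype kidneys, 1 of the 10, Mxd4, was called lower and none was called higher, where 2.61% of the 23742 genes tested were called lower, 4.06% higher and 6.67% in either direction. Its fitted fall was 0.20 on the log2 scale (SE 0.051) with an edgeR adjusted p of 0.042, and that call was lost in 11 of 20 alternative settings.

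The study sequenced polyadenylated RNA of the entire right kidney of mice in 3 groups, written here as wildtype (n = 5), Myc (n = 3) and Grhl2KO_Myc (n = 4). Wildtype in the labels means R26StopFLMYC; Grhl2 flox/flox, so the controls also carry floxed Grhl2 and the R26StopFLMYC allele, in which, as its name gives, MYC sits behind a loxP-flanked stop. Grhl2KO_Myc mice (Grhl2 knockout; Myc overexpression) had 1 parent with HoxB7-Cre and Grhl2flox/+ and the other parent with R26StopFLMYC and Grhl2flox/flox. The Myc group is labelled Myc overexpression, and its library identifiers hold the letters HET. Neither its cross nor its genotype at Grhl2 is given in the sources used here. No mouse was treated, and ages are not given. HoxB7-Cre acts in the ureteric bud lineage, the source of the collecting duct, so a whole kidney also holds many cells outside the lineage in which Cre acts. Whether reads from the MYC transgene were counted at the mouse Myc gene is not given either. No label states that each library is a different mouse; p-values therefore cover only the spread among these libraries.

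MYC, MYCN and MYCL are helix-loop-helix leucine zipper proteins that bind DNA as dimers with MAX, prefer the E-box, and raise transcription of genes for ribosome assembly, nucleotide synthesis and growth. MXD1, MXD3, MXD4, MXI1 (also called MXD2) and MNT pair with the same MAX protein, bind the same site and recruit SIN3 and histone deacetylases, which lowers transcription. MLX is a second shared partner, which pairs with MNT, with some MXD proteins and with the sugar-responsive factors MLXIP and MLXIPL. In kidney, MYC is known as a gene whose raised expression drives tubular overgrowth and cysts.

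Total counts per library lay between 52973520 and 98713157 for wildtype, 70608817 and 101043826 for Myc, and 75187006 and 108164810 for Grhl2KO_Myc. Myc 1 stood apart: genes taken as ribosomal RNA-like held 5.55% of its counts, against 0.16% to 0.581% in the other libraries. Its counts differed from those of Myc 2 and Myc 3 by a chi-square per degree of freedom of 167 and 269, against 31 between Myc 2 and Myc 3. Without Myc 1, 6 genes were called in Myc against wildtype in place of 1. Grhl2, the targeted gene, stood at 25.8 ± 2.04 CPM (SD, n = 5) in wildtype, 29.9 ± 2.71 (n = 3) in Myc and 21.04 ± 2.78 (n = 4) in Grhl2KO_Myc. It was called lower against Myc (edgeR log2 fold change -0.51, adjusted p = 0.044) and not against wildtype (-0.29, adjusted p = 0.082). Kidney markers were present in every library, and no marker was at 0 throughout. Wildtype 4, Grhl2KO_Myc 3 and Grhl2KO_Myc 4 were low in transcripts of the proximal tubule, the main tubule segment of the cortex: 30 markers summed to 2130, 2320 and 2410 CPM there and to 4500 to 7460 CPM in the other libraries. In Grhl2KO_Myc 1 and 4, Myc 3 and wildtype 5 the Y-linked gene Ddx3y reached 62.8 to 81.2 CPM, against at most 1.33 CPM in the remaining libraries, so each group mixed libraries with and without Y-linked transcripts. Grhl2KO_Myc 3 held neither Ddx3y (0 CPM) nor more than a trace of Xist (0.213 CPM), the RNA of the inactive X chromosome, and the labels used here give no sex.

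Sequence around the start sites is shown because the network's proteins bind the E-box CACGTG and 4 members carry this site in their own promoter. RefSeq windows of 300 bases (250 before the start site and 50 after it, build GRCm38.p6) were found for 9 of the 10 members. CACGTG, which reads the same on both strands, was in the windows of 4 of these 9 genes (44.4%), Mxd4, Mnt, Max and Mlx, and in 7.15% of all 32851 windows or 8.09% of 27025 genes. Its first base lay 219 bases before the RefSeq start of Mxd4, 123 before that of Mnt, 40 before that of Mlx and 3 before that of Max. The 30 bases around each site follow, 5′ to 3′ on the gene's strand, with the E-box in capitals.
Mxd4 (chr5:34187912-34187941, minus strand): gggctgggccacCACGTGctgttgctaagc
Mnt (chr11:74830789-74830818, plus strand): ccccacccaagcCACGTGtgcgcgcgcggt
Max (chr12:76962234-76962263, minus strand): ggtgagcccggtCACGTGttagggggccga
Mlx (chr11:101087238-101087267, plus strand): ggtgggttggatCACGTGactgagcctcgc
For Mxd4 and Mnt, the members with the smallest p between Grhl2KO_Myc and wildtype, the 250 bases before the RefSeq start follow with the same E-box in capitals.
Mxd4 (chr5:34187711-34187960, minus strand): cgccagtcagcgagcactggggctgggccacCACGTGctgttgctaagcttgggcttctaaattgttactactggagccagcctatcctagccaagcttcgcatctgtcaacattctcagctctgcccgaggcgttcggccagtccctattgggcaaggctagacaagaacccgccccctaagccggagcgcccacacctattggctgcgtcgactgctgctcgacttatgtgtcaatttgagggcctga
Mnt (chr11:74830674-74830923, plus strand): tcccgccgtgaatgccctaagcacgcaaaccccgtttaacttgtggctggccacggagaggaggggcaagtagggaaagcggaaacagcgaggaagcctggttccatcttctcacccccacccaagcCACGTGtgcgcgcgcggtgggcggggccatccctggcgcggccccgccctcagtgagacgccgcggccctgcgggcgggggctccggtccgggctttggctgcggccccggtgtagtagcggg
The site described for grainyhead-like proteins was searched as AACCGGTT and, more loosely, as AACNNGTT, which includes the first and also reads the same on both strands. Neither was in the windows of the 9 members, against 0.146% and 4.2% of all windows. These are matches of letters in a window and not measured binding.

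Levels of different members were compared as RPKM, which is CPM (counts scaled to library size with TMM factors) divided by the exon width in kilobases that the table gives. Over the 12 libraries the median was highest for Max at 24.9 RPKM, then Mxd4 at 22.1, Mycn at 15.5, Mxi1 at 11.8 and Myc at 10.2. Mxd3 followed at 9.97, Mlx at 9.93, Mnt at 8.80, Mycl at 3.07 and Mxd1 at 2.20 RPKM. Neighbours in this order were separated to different degrees. Max was above Mxd4 in 11 of 12 libraries, Mxd4 above Mycn in 12, Mycn above Mxi1 in 12 and Mxi1 above Myc in 10. Myc was above Mxd3 in 6 of 12 libraries and Mxd3 above Mlx in 8, so these 3 genes did not separate beyond their spread. Mlx was above Mnt in 11, Mnt above Mycl in 12 and Mycl above Mxd1 in 11 of 12 libraries. The places of Max, Mxi1 and Mxd3 rest on their widths in the table, which for Max is 2005 bases. With the 3598 bases of merged Max exons in GENCODE M21, a setting added after seeing the data, the Max median was 13.9 RPKM, behind Mxd4 and Mycn. GENCODE widths also moved Mxi1 from place 4 to 6, at 9.71 RPKM behind Myc (10.4) and Mlx (9.93). Mxd3 moved from place 6 to 8, at 8.76 RPKM.

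**Figure D1:**
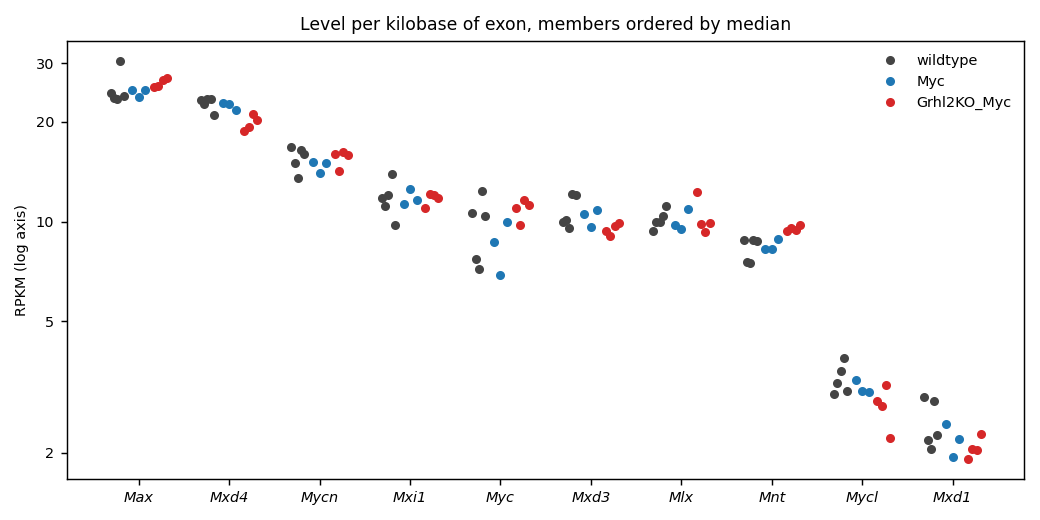
RPKM on a log axis for the 10 members, ordered by their median over 12 libraries, with 1 point per library and colours for the 3 groups. Max lies between 23.4 and 30.6 RPKM and Mxd1 between 1.92 and 2.96, while Myc, Mxd3 and Mlx overlap near 10 RPKM.

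Myc itself, on mm10 chromosome 15 from 61985391 to 61990374 on the plus strand, is the member that the Myc group is labelled as overexpressing. Its TMM-scaled level was 29.3, 21.3, 19.8, 34.4 and 28.7 CPM in wildtype 1 to 5, 23.99, 19.1 and 27.6 CPM in Myc 1 to 3, and 30.5, 27.0, 32.2 and 30.9 CPM in Grhl2KO_Myc 1 to 4. The Myc libraries lay inside or below the wildtype range, so the labelled overexpression was not seen as a higher count at this gene in whole kidney. The fitted log2 difference of Myc from wildtype was -0.18 (SE 0.17, 95% interval -0.55 to 0.19, edgeR adjusted p = 0.9994). Grhl2KO_Myc differed from wildtype by 0.17 (SE 0.15, interval -0.16 to 0.51, edgeR adjusted p = 0.55) and from Myc by 0.35 (SE 0.18, interval -0.03 to 0.74, edgeR adjusted p = 0.42). The groups overlapped in all 3 comparisons, and Myc varied most among wildtype libraries of the 10 members, with an SD of 22.7% of the mean there against 7.41% in Grhl2KO_Myc. The 3 highest Myc levels, 34.4, 32.2 and 30.9 CPM, were in the 3 libraries low in proximal tubule transcripts. Without those 3 libraries the difference of Grhl2KO_Myc from wildtype was 0.21 and from Myc 0.28, and with the proximal tubule score (the mean log2 CPM of those markers) as a term these were 0.06 and 0.19, none of them called. In bulk tissue, fewer cells of a type and less RNA per cell cannot be told apart.

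Mycn, the family member of embryonic and progenitor tissue, was the most abundant of the MYC genes per length. It lies on chromosome 12 from 12936093 to 12941914 on the minus strand. Its level was 55.2, 49.3, 44.3, 54.0 and 52.6 CPM in wildtype 1 to 5, 49.6, 46.1 and 49.4 CPM in Myc 1 to 3, and 52.8, 46.7, 53.3 and 52.4 CPM in Grhl2KO_Myc 1 to 4. All Myc and Grhl2KO_Myc libraries fell inside the wildtype range. Fitted differences were -0.08 for Myc and 0.01 for Grhl2KO_Myc against wildtype, the latter with a 95% interval of -0.14 to 0.15. Mycn gave 54.6% ± 2.83 (SD, n = 5) of the summed MYC-family RPKM in wildtype, 55.9% ± 2.45 (n = 3) in Myc and 53.3% ± 0.883 (n = 4) in Grhl2KO_Myc.

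Mycl, the least abundant MYC gene, lies on chromosome 4 from 122995652 to 123002485 on the plus strand. It stood at 12.1, 13.1, 14.3, 15.6 and 12.4 CPM in wildtype 1 to 5, 13.4, 12.4 and 12.3 CPM in Myc 1 to 3, and 11.6, 11.2, 13.0 and 8.97 CPM in Grhl2KO_Myc 1 to 4. Of the Grhl2KO_Myc libraries, 1, 2 and 4 lay below every wildtype library, and Grhl2KO_Myc 3 did not. The fitted difference from wildtype was -0.27 (SE 0.11, interval -0.50 to -0.04), with an unadjusted p of 0.024 and an edgeR adjusted p of 0.15.

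Max, the shared partner of the MYC, MXD and MNT proteins, lies on chromosome 12 from 76937269 to 76962201 on the minus strand. Its level was 48.8, 47.3, 46.8, 61.4 and 48.0 CPM in wildtype 1 to 5, 49.9, 47.7 and 50.05 CPM in Myc 1 to 3, and 51.0, 51.4, 53.4 and 54.6 CPM in Grhl2KO_Myc 1 to 4. Wildtype 4 was the highest of the 12 libraries, and the other wildtype libraries all lay below Grhl2KO_Myc. The fitted difference of Grhl2KO_Myc from wildtype was 0.06 (SE 0.074, edgeR adjusted p = 0.68), and without wildtype 4 it was 0.14 with an edgeR adjusted p of 0.025. The fit without wildtype 4 called 3778 genes in all in place of 1584, and Max stayed uncalled in 19 of 20 alternatives. Grhl2KO_Myc and Myc libraries did not overlap for Max, as was the case for 16.8% of all genes. The fitted difference of Max between them was 0.10 (SE 0.084, edgeR adjusted p = 0.65). The 3 highest Max levels were again in the 3 libraries low in proximal tubule transcripts. With those 3 left out the difference from wildtype was 0.10 (adjusted p = 0.20, edgeR), and once the proximal tubule score was a term it turned to -0.02 (adjusted p = 0.86, edgeR).

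**Figure D2:**
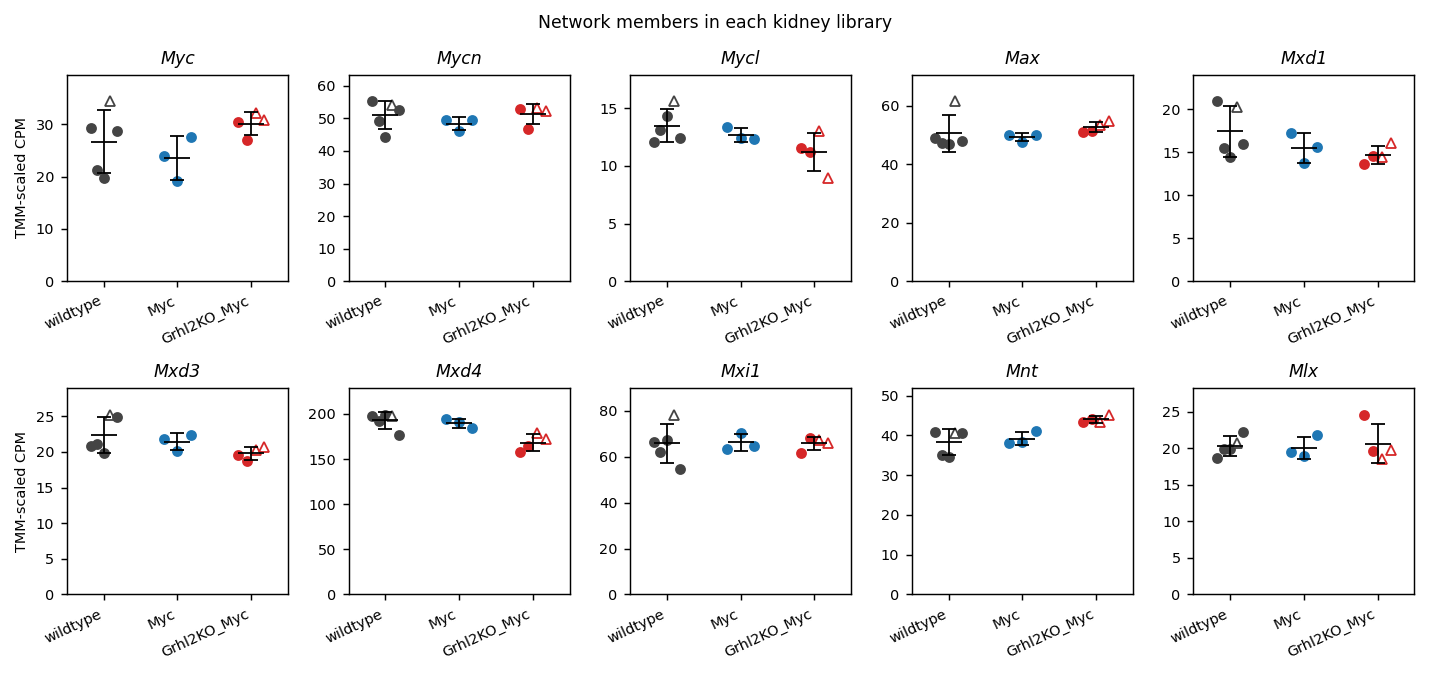
TMM-scaled CPM of the 10 members in each library of the 3 groups, with the group mean and SD as bars and an axis from 0 in each panel. Open triangles are the 3 libraries low in proximal tubule transcripts, which include the highest Myc (34.4 CPM) and the highest Max (61.4 CPM).

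Mxd4, the MXD antagonist with the highest level, encodes a MAX partner linked to exit from the cell cycle and differentiation. It lies on chromosome 5 from 34173883 to 34187720 on the minus strand. Its level was 198, 192, 199, 198 and 177 CPM in wildtype 1 to 5, 194, 191 and 184 CPM in Myc 1 to 3, and 158, 164, 179 and 172 CPM in Grhl2KO_Myc 1 to 4. Every Grhl2KO_Myc library was below every Myc library, and 16.8% of all genes did not overlap between these groups. Wildtype 5 at 177 CPM lay just under Grhl2KO_Myc 3 at 179 CPM. Mean levels were 193 ± 8.97 CPM (SD, n = 5) in wildtype, 190 ± 5.09 (n = 3) in Myc and 168 ± 9.25 (n = 4) in Grhl2KO_Myc. Mxd4 fell by 0.20 on the log2 scale in Grhl2KO_Myc against wildtype (SE 0.051, interval -0.31 to -0.08, edgeR adjusted p = 0.042), and DESeq2 and limma-voom called it too (adjusted p = 0.0055 and 0.035). Against Myc the difference was -0.17 (SE 0.058, edgeR adjusted p = 0.22), and Myc differed from wildtype by -0.02 (interval -0.15 to 0.10).

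The Mxd4 call was close to the threshold and was lost in 11 of 20 alternatives, among them a block by replicate number (edgeR adjusted p = 0.056). It was lost when wildtype 1, 2 or 3 or Grhl2KO_Myc 1, 2 or 4 was left out (edgeR adjusted p between 0.072 and 0.096), with upper-quartile scaling (0.053), without the filter on low counts (0.10), with the 2 groups fitted alone (0.081) and with a term for Y-linked expression (0.071). The direction was the same in each of these. Without the 3 libraries low in proximal tubule transcripts the fall was 0.25 (edgeR adjusted p = 0.023), and 0.23 (0.0085) once the proximal tubule score entered as a term. An antisense gene model, Gm42846, shares 514 of the 8483 exon bases of Mxd4, and the library kit does not mark strand, so its reads cannot be told apart there.

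Mnt, the broadly expressed antagonist of MYC, had its highest values in Grhl2KO_Myc. It lies on chromosome 11 from 74830920 to 74845725 on the plus strand. Its level was 40.8, 35.0, 34.7, 40.7 and 40.5 CPM in wildtype 1 to 5, 38.2, 38.3 and 41.0 CPM in Myc 1 to 3, and 43.4, 44.2, 43.5 and 45.2 CPM in Grhl2KO_Myc 1 to 4. All 4 Grhl2KO_Myc libraries lay above the other 8. Over all genes 9.47% did not overlap between Grhl2KO_Myc and wildtype, and 16.8% between Grhl2KO_Myc and Myc. The fitted Mnt difference from wildtype was 0.20 (SE 0.060, interval 0.07 to 0.33), with an edgeR adjusted p of 0.065 and a DESeq2 adjusted p of 0.033. Without wildtype 4 edgeR gave Mnt an adjusted p of 0.025, and it called 3778 genes in all in place of 1584. Mnt stayed uncalled in 18 of 20 alternatives, with an edgeR adjusted p of up to 0.16 when 1 library was left out. From Myc it differed by 0.17 (SE 0.068, edgeR adjusted p = 0.30).

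Set against each other within a library, Mnt and Mxd4 separated Grhl2KO_Myc from the rest. The ratio of Mnt to Mxd4 in RPKM was 0.445 to 0.503 in the 4 Grhl2KO_Myc libraries, 0.320 to 0.418 in wildtype and 0.361 to 0.409 in Myc. Group means were 0.481 ± 0.0257 (SD, n = 4), 0.365 ± 0.0390 (n = 5) and 0.379 ± 0.0262 (n = 3). The ratio was formed after the values of both genes were seen and is given without a test.

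**Figure D3:**
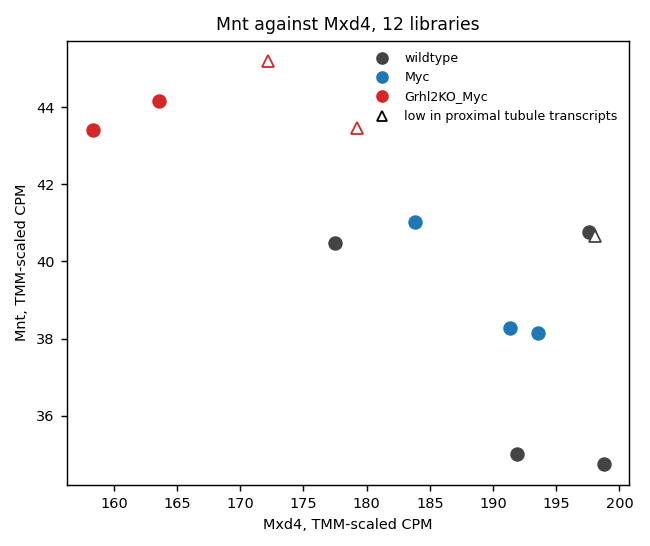
Mnt against Mxd4 in TMM-scaled CPM, 1 point per library, coloured by group, with open triangles for the 3 libraries low in proximal tubule transcripts and both axes starting above 0. The 4 Grhl2KO_Myc libraries lie at 43.4 CPM of Mnt or more, and the other 8 at 41.0 or less.

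Mxd1, the founding MXD gene, whose product rises in differentiating cells, lies on chromosome 6 from 86647042 to 86669161 on the minus strand. It stood at 20.9, 15.5, 14.5, 20.3 and 16.02 CPM in wildtype 1 to 5, 17.2, 13.7 and 15.6 CPM in Myc 1 to 3, and 13.6, 14.6, 14.4 and 16.1 CPM in Grhl2KO_Myc 1 to 4. Wildtype 1 and 4 were high and the remaining wildtype libraries overlapped both other groups. The difference of Grhl2KO_Myc from wildtype was -0.25 (SE 0.12, interval -0.50 to 0.01, edgeR adjusted p = 0.24). With the proximal tubule score as a term it was -0.35, with an edgeR adjusted p of 0.035.

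Mxd3, an MXD gene expressed in dividing cells, lies on chromosome 13 from 55325168 to 55329823 on the minus strand. Its level was 20.8, 21.1, 19.8, 25.2 and 24.9 CPM in wildtype 1 to 5, 21.8, 20.1 and 22.4 CPM in Myc 1 to 3, and 19.5, 18.7, 20.2 and 20.7 CPM in Grhl2KO_Myc 1 to 4. Wildtype 3 lay inside the Grhl2KO_Myc range. The fitted difference was -0.18 (SE 0.080, interval -0.35 to -0.0039), with an unadjusted p of 0.046 and an edgeR adjusted p of 0.22. Prelid1, on the opposite strand, shares 105 exon bases with Mxd3 and stood at 155 to 179 CPM in wildtype. It was itself not called (log2 fold change -0.03, edgeR adjusted p = 0.81), and its reads cannot be told apart at those bases.

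Mxi1, the antagonist also called MXD2, is induced by low oxygen in many cells. It lies on chromosome 19 from 53310518 to 53375810 on the plus strand. Its level was 66.5, 62.1, 67.3, 78.3 and 54.8 CPM in wildtype 1 to 5, 63.5, 70.4 and 64.9 CPM in Myc 1 to 3, and 61.6, 68.2, 67.4 and 66.0 CPM in Grhl2KO_Myc 1 to 4. Wildtype held both the highest and the lowest library, and its mean of 65.8 ± 8.56 CPM (SD, n = 5) was that of Grhl2KO_Myc, 65.8 ± 2.92 (n = 4). The 95% interval of the difference between these groups was -0.18 to 0.18 on the log2 scale. Gm10197, on the opposite strand, shares 194 exon bases with Mxi1 and stood at 5.34 to 6.08 CPM in wildtype.

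Mlx, the alternative partner, lies on chromosome 11 from 101087277 to 101092207 on the plus strand. It stood at 18.7, 19.9, 19.9, 20.8 and 22.3 CPM in wildtype 1 to 5, 19.5, 18.9 and 21.8 CPM in Myc 1 to 3, and 24.6, 19.6, 18.6 and 19.8 CPM in Grhl2KO_Myc 1 to 4. Grhl2KO_Myc 1 was the highest of the 12 libraries and the other Grhl2KO_Myc libraries overlapped both groups. The difference from wildtype was 0.02 (interval -0.16 to 0.21). Psmc3ip, on the opposite strand, shares 385 of the 1999 exon bases of Mlx and was itself not called (log2 fold change 0.06, edgeR adjusted p = 0.69).

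Between the Myc and wildtype groups, 0 of the 10 members were called by edgeR at an adjusted p under 0.05, 0 had an unadjusted p under 0.05 (1098 of the 23742 genes did), and DESeq2 and limma-voom called 0. Of all genes tested 0.00421% were called, a single gene. No member separated these groups without overlap, as 3.57% of all genes did. The members' log2 differences ran from -0.18 for Myc to 0.03 for Mnt with a median of -0.05, against a median of 0.00 over all genes. On simulated counts for this comparison over 23742 genes the same test recovered 2% of genes changed 1.2-fold and 50% of those changed 1.5-fold. The changed genes were drawn from all with a mean above 1 CPM, so recovery at the levels of the members was not simulated. The absence of calls does not show that the members were equal.

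Between Grhl2KO_Myc and wildtype, edgeR called 1 of the 10 members, DESeq2 2 (Mxd4 and Mnt) and limma-voom 1 (Mxd4), and over all 23742 genes edgeR called 1584 and DESeq2 2703. An unadjusted p under 0.05 was found for 4 members, Mxd4, Mnt, Mycl and Mxd3, and for 5212 of the 23742 genes. Mnt alone did not overlap between these groups, as was the case for 9.47% of all genes. Differences ran from -0.27 for Mycl to 0.20 for Mnt, 6 members above 0 and 4 below, with a median of 0.00 against -0.01 over all genes. The 4 below 0 were Mycl, Mxd1, Mxd3 and Mxd4. On simulated counts for this comparison the test recovered 2% of genes changed 1.2-fold and 64% of those changed 1.5-fold over 23742 genes.

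Between Grhl2KO_Myc and Myc, 0 of 10 members were called by edgeR, DESeq2 or limma-voom, and 2 (Mxd4 and Mnt) had an unadjusted p under 0.05, as did 3161 of the 23742 genes. Among all genes 0.842% were called, 0.358% higher and 0.484% lower. Max, Mxd4 and Mnt did not overlap between these groups, 3 of 10, and 16.8% of all genes did not. Differences ran from -0.19 for Mycl to 0.35 for Myc with a median of 0.02, against 0.00 over all genes. The comparisons share libraries in pairs, so their values for a member are not independent of each other.

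**Figure D4:**
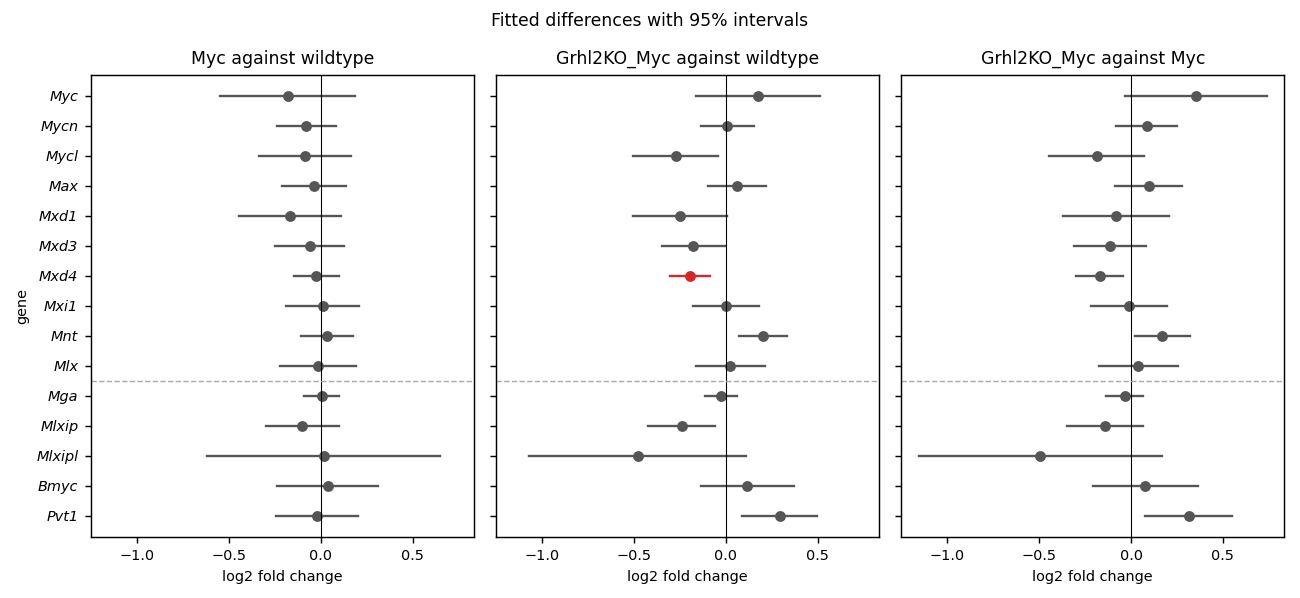
Fitted log2 fold changes with 95% intervals for the 10 members (above the dashed line) and 5 further genes of the network, in the 3 comparisons. Mxd4 in Grhl2KO_Myc against wildtype, at -0.20, is drawn in red as the single called gene, and the Mnt interval in that panel, 0.07 to 0.33, lies above 0.

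Summed by role, activator totals overlapped between the 3 groups, and antagonist totals did so except between Myc and Grhl2KO_Myc. The summed RPKM of Myc, Mycn and Mycl was 28.5 ± 3.44 (SD, n = 5) in wildtype, 26.4 ± 2.10 (n = 3) in Myc and 29.2 ± 1.82 (n = 4) in Grhl2KO_Myc. That of Mxd1, Mxd3, Mxd4, Mxi1 and Mnt was 55.9 ± 3.20, 55.1 ± 0.200 and 52.6 ± 1.87 RPKM. This antagonist sum ran from 54.9 to 55.3 RPKM in Myc and from 50.3 to 54.3 in Grhl2KO_Myc, where 16.8% of all single genes did not overlap. The ratio of antagonists to activators was 1.98 ± 0.185 in wildtype, with a range of 1.82 to 2.26, and 2.10 ± 0.172 in Myc, with a range of 1.96 to 2.29. It was 1.80 ± 0.117 in Grhl2KO_Myc, between 1.68 and 1.95, so the groups overlapped apart from Myc and Grhl2KO_Myc, whose nearest values were 1.96 and 1.95. Mxd4 made up 40.7% ± 2.04 of the antagonist sum in wildtype, 40.6% ± 1.02 in Myc and 37.7% ± 0.850 in Grhl2KO_Myc. Its share also did not overlap between Myc (39.4% to 41.3%) and Grhl2KO_Myc (37.1% to 38.9%), while wildtype (38.2% to 43%) overlapped both. These sums use the table's exon widths and are descriptions without a test.

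Of 6 further genes of the network, 5 were measurable and 0 were called by edgeR or limma-voom in any comparison. An unadjusted p under 0.05 was found for 0 of them in Myc against wildtype, 2 in Grhl2KO_Myc against wildtype (Pvt1 and Mlxip) and 1 in Grhl2KO_Myc against Myc (Pvt1). Of all 23742 genes, 1098, 5212 and 3161 had one in these comparisons. DESeq2 called 1, Pvt1 in Grhl2KO_Myc against wildtype, where it called 2703 over all genes. Pvt1, a long noncoding RNA gene next to Myc that lies on chromosome 15 from 62037986 to 62378096, was low. It stood at 3.20, 4.13, 4.10, 4.14 and 3.81 CPM in wildtype 1 to 5, 3.58, 3.90 and 4.00 CPM in Myc 1 to 3, and 4.83, 4.82, 4.98 and 4.38 CPM in Grhl2KO_Myc 1 to 4. All Grhl2KO_Myc libraries were above the other 8, while Myc and wildtype overlapped. Of all genes, 9.47% did not overlap between Grhl2KO_Myc and wildtype, and 16.8% between Grhl2KO_Myc and Myc. The difference from wildtype was 0.29 (SE 0.094, edgeR adjusted p = 0.086, DESeq2 adjusted p = 0.038) and from Myc 0.31 (SE 0.11, edgeR adjusted p = 0.23).

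Mlxip and Mlxipl, the sugar-responsive partners of MLX, had lower means in Grhl2KO_Myc. Mlxip was 66.6 ± 6.55 CPM (SD, n = 5) in wildtype, 62.2 ± 4.52 (n = 3) in Myc and 56.4 ± 5.78 (n = 4) in Grhl2KO_Myc, a difference from wildtype of -0.24 (SE 0.084, edgeR adjusted p = 0.11). With the proximal tubule score as a term the Mlxip difference was -0.34 (edgeR adjusted p = 0.0013), and without the 3 libraries low in proximal tubule transcripts it was -0.32 (0.022). Mlxipl stood at 24.04, 28.3, 29.7, 11.5 and 30.7 CPM in wildtype 1 to 5, 24.7, 25.6 and 25.01 CPM in Myc 1 to 3, and 25.7, 19.99, 12.2 and 13.5 CPM in Grhl2KO_Myc 1 to 4. Its 3 lowest levels were in the 3 libraries low in proximal tubule transcripts. The Mlxipl difference from wildtype was -0.48 (SE 0.27, edgeR adjusted p = 0.33), -0.31 without those libraries and -0.06 with the score as a term. With wildtype 4 alone left out it was -0.66 (edgeR adjusted p = 0.039), in a fit that called 3778 genes in all in place of 1584. Mga, a large MAX partner that also carries a T-box, was between 71.7 and 79.2 CPM in all 12 libraries, with a difference of -0.03 from wildtype (interval -0.12 to 0.06). Bmyc, a mouse gene related to the start of MYC, was 15.0 ± 2.51, 15.5 ± 1.59 and 16.3 ± 1.49 CPM in wildtype, Myc and Grhl2KO_Myc, and shares 617 of its 983 exon bases with an antisense gene. Mycs, a MYC-related gene without introns, had 0 counts in all 12 libraries.

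Over the 12 libraries the genes most like Myc among 14416 genes, by Pearson correlation of log2 CPM, were Ppp1r3b (0.954), Pdcd7 (0.944), Brd2 (0.940), Csrnp2 (0.928) and Leprotl1 (0.927). BRD2 is a bromodomain protein that binds acetylated histones. The closest gene was Pias4 for Mycn (0.887), Hbb-bs for Mycl (0.930), Aamp for Max (0.980), Epha2 for Mxd1 (0.961) and Arhgap27os2 for Mxd3 (0.942). It was Ptpn14 for Mxd4 (0.953), Pnpla7 for Mxi1 (0.962), Slc25a22 for Mnt (0.955) and Ppcs for Mlx (0.925). By Spearman correlation the closest gene was the same for Max, Mxd3 and Mxi1 and a different gene for each remaining member. These are descriptions of libraries that share groups and tissue makeup, with Myc and Max both highest in the 3 libraries low in proximal tubule transcripts.

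Calls among genes of the network's partner proteins are read beside the 4.06% of all genes called higher and 2.61% called lower in Grhl2KO_Myc against wildtype. Among 16 coactivators and chromatin partners of MYC, 2 were called higher in Grhl2KO_Myc against wildtype and 0 lower, with a list median of 0.05 (edgeR; 4 had an unadjusted p under 0.05). DESeq2 called 4 of them, and 5 were called higher by edgeR without wildtype 4. Over all 23742 genes 5212 had an unadjusted p under 0.05 and DESeq2 called 2703. Without wildtype 4 edgeR called 3778 genes in either direction. Kat2a, the histone acetyltransferase GCN5, was 65.2 ± 1.73 CPM (SD, n = 5) in wildtype, 70.3 ± 2.20 (n = 3) in Myc and 84.3 ± 6.82 (n = 4) in Grhl2KO_Myc, a rise of 0.37 (SE 0.053, edgeR adjusted p = 0.0017). Ruvbl2, an ATPase of the TIP60 complex, rose by 0.32 (SE 0.065, edgeR adjusted p = 0.014) from 53.7 ± 2.95 to 66.8 ± 6.46 CPM. Neither gene overlapped between these groups, as was the case for 9.47% of all genes. Both calls held under the 20 alternatives run for this comparison.

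Among 16 corepressor subunits that MXD proteins and MNT recruit, 1 was called higher and 0 lower (list median 0.01), while DESeq2 called 3 and edgeR called 2 lower with the proximal tubule score as a term. Hdac2, a histone deacetylase, stood at 127 ± 4.02 CPM (SD, n = 5) in wildtype and 143 ± 4.42 (n = 4) in Grhl2KO_Myc, a rise of 0.18 (SE 0.042, edgeR adjusted p = 0.028). Among 22 genes of MYC protein turnover 1 was called higher and 0 lower (list median -0.01): Set, an inhibitor of the phosphatase PP2A, rose by 0.26 (SE 0.059, edgeR adjusted p = 0.024) from 343 ± 14.5 to 411 ± 30.7 CPM. Hdac2 kept its call in 10 of 20 alternatives and Set in 11. The highest edgeR adjusted p came without Grhl2KO_Myc 4 for both, 0.091 and 0.078. Without wildtype 4, 2 corepressor and 3 turnover genes were called higher. In the comparisons of Myc with wildtype and of Grhl2KO_Myc with Myc, edgeR and limma-voom called 0 genes of these 3 lists. For coactivators, corepressors and turnover an unadjusted p under 0.05 was found for 0, 0 and 0 genes in the first of these comparisons and for 4, 3 and 3 in the other, where DESeq2 called 1, 0 and 0. Over all 23742 genes it was found for 1098 and 3161, and DESeq2 called 777 in the other comparison.

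Genes described as induced by MYC were the list with the most calls. In Grhl2KO_Myc against wildtype 25 of 42 were called higher and 0 lower, with 40 above 0 and a median log2 difference of 0.34. Over all genes 4.06% were called higher and 2.61% lower, 11504 of 23742 lay above 0 and the median was -0.01. The list was chosen with earlier results of these libraries known, so its direction is a description. Impdh2, which makes guanine nucleotides, stood at 106, 102, 101, 103 and 99.3 CPM in wildtype 1 to 5, 111, 124 and 119 CPM in Myc 1 to 3, and 140, 141, 149 and 153 CPM in Grhl2KO_Myc 1 to 4. Every Myc library lay above every wildtype library and below every Grhl2KO_Myc library. Over all genes 3.57% did not overlap between Myc and wildtype, and 16.8% between Grhl2KO_Myc and Myc. Impdh2 rose by 0.51 in Grhl2KO_Myc against wildtype (SE 0.045, edgeR adjusted p = 9.9e-05). Slc7a5, a transporter of large neutral amino acids, stood at 30.8, 29.7, 27.8, 35.6 and 32.0 CPM in wildtype 1 to 5, 33.4, 36.3 and 37.0 CPM in Myc 1 to 3, and 42.0, 48.6, 51.0 and 52.4 CPM in Grhl2KO_Myc 1 to 4. It rose by 0.64 (SE 0.080, edgeR adjusted p = 8.0e-04), and its Myc libraries overlapped wildtype 4. Gart, of purine synthesis, rose by 0.55 and Nop58, of small nucleolar particles, by 0.35.

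In Myc against wildtype edgeR, DESeq2 and limma-voom called 0 of these 42 genes, though 9 had an unadjusted p under 0.05 and 37 lay above 0, with a median of 0.12. Over all genes 1098 of 23742 had an unadjusted p under 0.05 and 11881 lay above 0. Impdh2 differed by 0.20 (SE 0.049, edgeR adjusted p = 0.61) and Gart by 0.24 (SE 0.074, edgeR adjusted p = 0.88). In Grhl2KO_Myc against Myc 3 were called higher, Impdh2 (0.30), Slc7a5 (0.45) and Bop1 (0.36), a ribosome assembly factor, and the list median was 0.22, where 0.358% of all genes were called higher. DESeq2 called 10 there, and 777 over all genes. Leaving out Myc 1, Myc 3, Grhl2KO_Myc 3 or Grhl2KO_Myc 4 left 0 called, leaving out Myc 2 left 1, and leaving out the 3 libraries low in proximal tubule transcripts left 0. The 25 calls against wildtype ranged from 17 without Grhl2KO_Myc 4 to 26 without wildtype 4, and 22 stood without the 3 libraries low in proximal tubule transcripts. CACGTG was in the promoter window of 10 of the 35 list genes with a window (28.6%), against 8.09% of 27025 genes. Of the list genes named here only Impdh2 was among the 10.

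**Figure D5:**
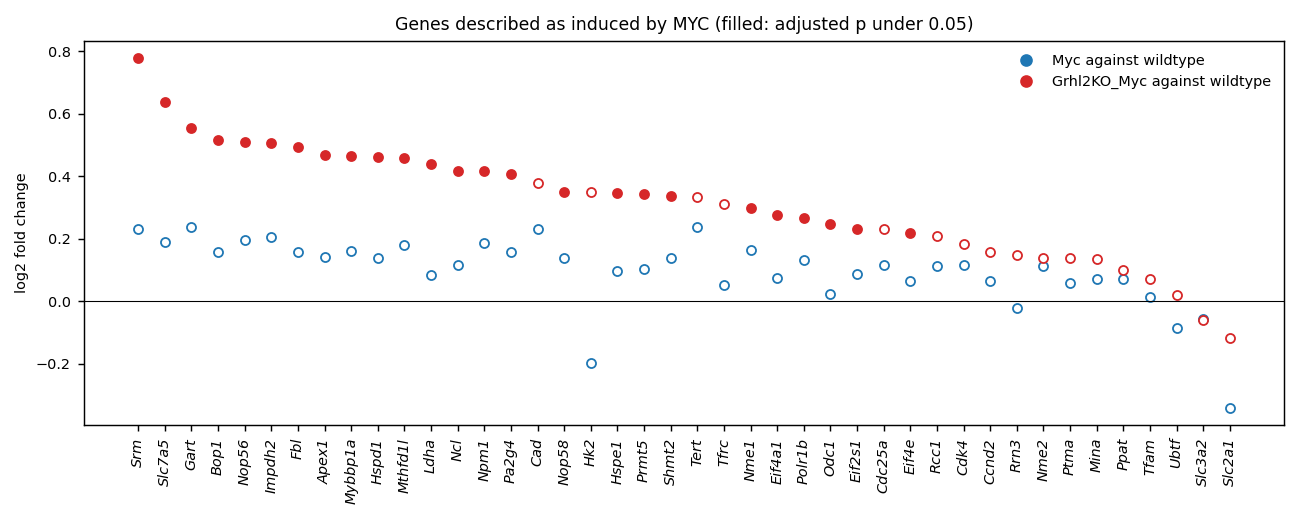
Log2 fold changes of the 42 genes described as induced by MYC, ordered by their value in Grhl2KO_Myc against wildtype (red), with Myc against wildtype in blue and filled points for an edgeR adjusted p under 0.05. Of the red points 25 are filled and 40 lie above 0, and of the blue points 0 are filled and 37 lie above 0.

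Cell type markers also differed between Grhl2KO_Myc and wildtype, and their part in these gene groups was not tested. Called lower, as 2.61% of all genes were, were 3 of 10 podocyte markers (summed 948 to 1020 CPM against 1220 to 1320 in wildtype), 4 of 10 endothelial markers (890 to 953 against 985 to 1110) and 2 of 10 markers of the distal convoluted tubule (541 to 784 against 836 to 1040). Also lower were 3 of 15 principal cell markers (1260 to 1430 against 1240 to 1580) and 2 of 30 proximal tubule markers (2320 to 5500 against 2130 to 7460). Of 15 intercalated cell markers 1 was higher and 1 lower (391 to 470 CPM against 323 to 535), and of 7 lymphocyte markers tested 1 was lower. Against Myc, where 0.484% of all genes were called lower, 3 of 15 intercalated cell markers were lower with a list median of -0.55, as were 3 of 15 principal cell markers with a median of -0.12. The intercalated cell sum was 548 to 652 CPM in Myc, above every wildtype and Grhl2KO_Myc library. No marker of these lists was at 0 throughout.

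Beside 4.06% of all genes called higher and 2.61% lower, the remaining 3 lists gave the following calls. Of 15 genes described as repressed by MYC, 1 was called higher and 0 lower in Grhl2KO_Myc against wildtype, with a list median of -0.12. That gene was Gadd45b, a stress-response gene, at 5.65 ± 1.31 CPM (SD, n = 5) in wildtype and 8.51 ± 0.918 (n = 4) in Grhl2KO_Myc, a rise of 0.59 (SE 0.16, edgeR adjusted p = 0.044) that held in 7 of 20 alternatives and reached an adjusted p of 0.10 without wildtype 3. Without wildtype 4, 2 of the repressed genes were called higher. Of 15 targets of MLXIP and MLXIPL edgeR called 0, 1 had an unadjusted p under 0.05, DESeq2 and limma-voom called 0, and the median was -0.22. Without wildtype 4, 3 of these targets were called lower, and without the 3 libraries low in proximal tubule transcripts 1 was called higher and 1 lower. Of 30 cell cycle genes 1 was called lower by edgeR, 3 by DESeq2 and 0 higher, with a median of -0.16. The count of cell cycle genes called lower was 18 with the proximal tubule score as a term, 9 without the 3 libraries low in proximal tubule transcripts, 3 without Grhl2KO_Myc 4, 2 without wildtype 3 and 0 without wildtype 1 or Grhl2KO_Myc 1, 2 or 3. Mki67, the gene of the proliferation marker Ki-67, fell by 0.30 (SE 0.069, edgeR adjusted p = 0.024), from 227 ± 13.9 CPM (SD, n = 5) to 184 ± 15.8 (n = 4). Its libraries did not overlap between these groups, as was the case for 9.47% of all genes, and it kept its call in 15 of 20 alternatives. In the other comparisons edgeR and limma-voom called 0 genes of these 3 lists. An unadjusted p under 0.05 was found there for 0, 1 and 0 genes in Myc against wildtype and for 1, 1 and 5 in Grhl2KO_Myc against Myc, where DESeq2 called 0, 1 and 1. Over all 23742 genes it was found for 1098 and 3161, and DESeq2 called 777 in Grhl2KO_Myc against Myc. In Grhl2KO_Myc against wildtype it was found for 5212, and DESeq2 called 2703. For that comparison edgeR called 2335 with the score, 2272 without the 3 libraries and 3778 without wildtype 4.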

How the data were processed

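Polyadenylated RNA of 12 whole right kidneys was sequenced from TruSeq RNA v2 libraries, per the labels' protocols, a kit that leaves strand unmarked. Reads were aligned with HISAT2 to mm10, per the submitters' processing notes (version, counting program and annotation: not given in the sources used here). What the authors deposited is a table of raw counts by gene, not normalized, with each gene's exon width. Columns were matched to libraries by the identifiers in the sample titles, and 0 columns belonged to other samples. No replicate pair was a duplicate within sampling noise (lowest chi-square per degree of freedom 13.5).

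In R 4.3.3, edgeR 4.0.16 tested the counts by its quasi-likelihood F test after filterByExpr (23742 of 46403 genes kept) and TMM scaling, all 12 libraries in 1 fit. P-values were adjusted over all genes tested by Benjamini-Hochberg, and genes under 0.05 were called. Standard errors and 95% intervals come from the log2 fold change and its F. RPKM is TMM-scaled CPM per kilobase of the deposited exon width. The test was checked on simulated counts with known changes. Likeness is a correlation of log2 CPM with a prior count of 2 over genes with a mean of at least 1 CPM.

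Named were all 10 members and 6 further network genes. For each other list and comparison up to 4 called genes with the smallest adjusted p were named, otherwise up to 2 with the smallest unadjusted p, of which those that add to the text are printed. Named for likeness were the 5 genes most like Myc and 1 per other member. The members, lists and alternatives were chosen with earlier results of these data known. The alternatives tried were scaling by RLE or upper quartile, dropping the filter (1 count needed), requiring 1 CPM in 3 libraries, limma-voom (limma 3.58.1), DESeq2 1.42.0, the 2 groups alone, a replicate block, a term for Y-linked expression, a term for the proximal tubule score (mean log2 CPM of its markers), leaving out the 3 libraries low in that score, and leaving out each replicate. Coordinates are from GENCODE M21 (mm10), which may differ from the authors' annotation, and promoter windows from RefSeq (GRCm38.p6).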

Additional observations from a re-analysis of the deposited data

Results flagged for a closer look

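Among 86 groups of 4 or 5 libraries examined over 43 genes, 3 held a library standing far from the rest of its group, and chance alone flags about 1 in 20 such groups. Mycn in Grhl2KO_Myc 2 was the lowest of its group at 46.7 CPM, while the other Grhl2KO_Myc libraries lay between 52.4 and 53.3 CPM. Max in wildtype 4 was the highest at 61.4 CPM, with the other wildtype libraries between 46.8 and 48.8 CPM; wildtype 4 is also low in proximal tubule transcripts. Suds3, a SIN3 corepressor subunit, was the highest in Grhl2KO_Myc 1 at 103 CPM, with the other 3 libraries of the group between 96.9 and 97.6 CPM.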

How the results depend on the processing

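Network members called in Grhl2KO_Myc against wildtype, 1 in all, numbered 0 with upper-quartile scaling, without the filter, with the 2 groups alone or with a Y-linked term, 2 with DESeq2 or the proximal tubule score, and 0 to 3 with 1 library left out (3 without wildtype 4). In the other comparisons 0 were called under every alternative run. Of 570 alternative tests of members 555 stayed on their side of the threshold, and 45 changed sign among those not called. All genes called against wildtype in Grhl2KO_Myc (1584) numbered 2703 with DESeq2, 995 with the 2 groups alone, 981 with a Y-linked term and 750 (without Grhl2KO_Myc 4) to 3778 (without wildtype 4) with 1 library left out. In Myc (1) they numbered 44 with DESeq2, 0 with limma-voom, the 2 groups alone or a Y-linked term, and 0 to 6. Against Myc (200) they numbered 777 with DESeq2, 318 without the 3 libraries low in proximal tubule transcripts, and 70 to 163. List genes called against wildtype (31) were 52 with the proximal tubule score. Against Myc (3) they were 13 with DESeq2, 1 with a Y-linked term, 9 with the score, 6 without the 3 libraries, and 0 to 3. Of the 5 genes most like Myc, 3 were also among the 5 by Spearman correlation. With GENCODE M21 exon widths, a setting added after seeing the data, the median was 13.9 RPKM for Max, 9.71 for Mxi1 and 8.76 for Mxd3. Leaving out samples means fewer samples in the fit; otherwise the cause was not tested.

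The replicate block, with the labels' replicate numbers as a factor, gave 0 members, 993 genes called against wildtype in Grhl2KO_Myc, 0 in Myc, 88 against Myc and 0 list genes against Myc, and Mxd4 had an edgeR adjusted p of 0.056. Deviations of same-numbered libraries correlated between -0.11 and 0.23, with 1 of 10 pairs over 0.1. No pairing by number was visible in these values, which with so few libraries a group cannot show whether libraries were paired.

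With 3 to 5 libraries a group the simulated test recovered at most 4% of genes changed 1.2-fold. Those genes were drawn from all with a mean above 1 CPM. Recovery at the levels and spreads of Mxd4 and Mnt was not simulated, so this share sets no limit for them. Counting of transgene reads at mouse Myc, cells outside the Cre lineage and protein levels are limits of these data.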
